A study of Zea mays with 318 samples.

Results

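The genes described here were on in some maize inbred lines and off in others. They were chosen by a rule on the measured values: a raw count of 0 in at least 64 of 318 lines and a level of at least 5 FPKM (fragments per kilobase of gene, scaled for library size) in at least 64 lines. Of the 39625 genes in the tables, 300 met both conditions, and all 300 are described. RNA-seq was performed on kernels collected 5 DAP (days after pollination) in 2014, with 1 library per inbred line from seeds of 3 field blocks that were mixed before RNA extraction. By the first letters of their names, 98 lines were CIMBL lines, 40 were CML lines and 46 were GEMS lines, and the rest of the 318, which carry many unrelated names, are called here the lines outside the series. The kernels were collected on the same day after pollination and no treatment is given. The names are the only difference between the groups that the labels give. The paper points out that kernels of different lines at this time need not be at the same morphological stage.

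Lines of a crop species can differ in which genes they carry, and maize is known for much variation of this kind. A gene of the reference line B73 may be missing from another line, may be there as a diverged copy that reads no longer match, or may be there and silent in the tissue that was sampled. Read counts do not separate these states. In what follows, a gene is called detected in a line when at least 1 read was counted on it, off when the count was 0, and high when it reached 5 FPKM. Whether an off line lacks the gene was not tested. The reads were aligned to B73, so genes that B73 lacks are not in the tables, and B73 itself is not among the line names.

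The total count per library was 6100624 to 29629212 (median 13625467). ZAG2, a MADS-box gene of the female flower and young kernel, was detected in 318 of 318 lines (81.4 to 498 FPKM, median 196). Mn1, the endosperm cell wall invertase, was also detected in 318 lines (1.97 to 239 FPKM, median 39.2). Both are kernel genes, and both were present in each library. In the study's mapping statistics, 36 of the deposited lines are not listed. Of these 36, 13 agreed unusually closely with another line in the members' states, as described at the end, so counts of members called are given with and without the 36. No line has a replicate library, so the spread in what follows is between lines, and the lines of a series share descent to an unknown degree.

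The members' values fell into 3 classes, off, high and between. Over the 95400 values of 300 members in 318 lines, 38% were a count of 0, 33.5% were 5 FPKM or more and 28.5% lay between. The rule itself asks for both outer classes, so their shares are no finding. A count of 1 to 9 made up 14.6% of all values, and 14% held 10 counts or more and stayed under 5 FPKM. A member was detected in 27% to 79.9% of the lines (median 65.7%, or 209 lines) and was high in 64 to 224 lines (median 96.5). The most common class was detection in 225 to 249 lines, with 84 members, followed by 200 to 224 lines with 73 members. Detection in 75 to 99 lines was the rarest, with 6 members. In the lines where it was high, a member had a median of 6.01 to 112.5 FPKM (median over members 10.7).

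**Figure D1:**
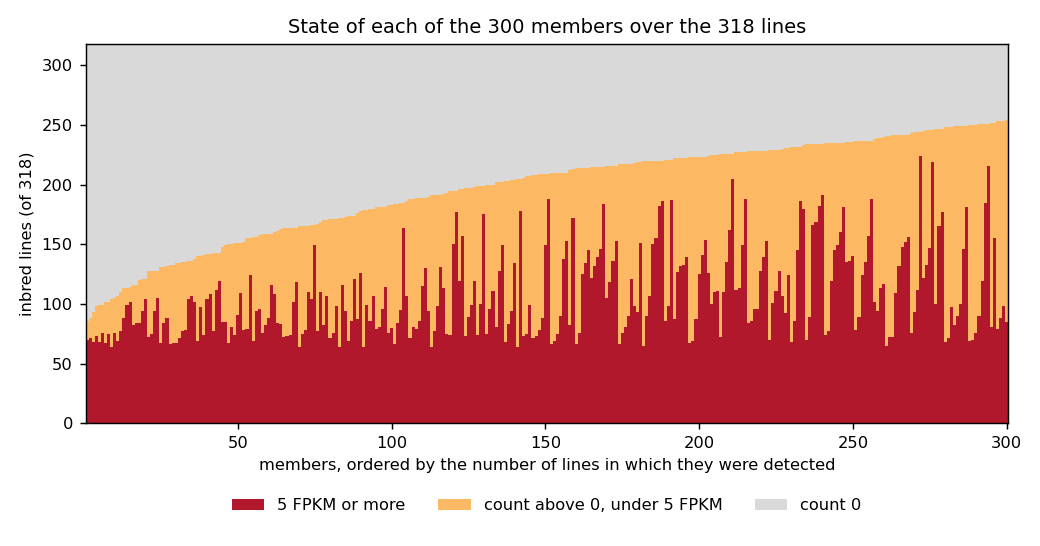
Number of lines (y axis, of 318) in which each of the 300 members (x axis, ordered by the lines in which it was detected) was at 5 FPKM or more, detected below 5 FPKM, or at a count of 0. The grey part shrinks to the right by the ordering, and the middle class starts at 12 lines per member.

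An off state was a count of 0 and not merely a low value, so the distance between the states can be given as a lower bound. At 3 counts in a library of typical size, the limit that a count of 0 allows, the members would have had 0.0380 to 2.83 FPKM (median 0.244). Set against that limit, the median level of a member over its high lines was at least 4.95-fold to at least 501-fold higher (median at least 46.2-fold). The largest bound belongs to GRMZM2G103108. These bounds cover counting error and describe values that the rule selected.

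The edges of the rule were not gaps in the data. GRMZM2G472473 was off in 64 lines and GRMZM2G146778 in 65, just inside the rule, while GRMZM2G143403 and GRMZM2G304657 were each off in 63 lines and stayed outside. GRMZM2G143403 had a mean of 36.1 FPKM and was high in 202 lines, so a gene as strong as the leading members was left out by 1 line. On the other side, GRMZM2G039630 and GRMZM2G062245 were each high in 64 lines, and AC207260.3_FG003 and GRMZM2G020162 in 63.

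Mean levels over all 318 lines were 1.91 to 38.3 FPKM (median 4.35). The highest mean belonged to GRMZM5G847707, a short gene of 159 bp by the length that the counts and FPKM imply. It was off in 92 lines, between the states in 21 and high in 205, with a quartile range of 26.2 to 78.9 FPKM over the high lines and 235 FPKM in CML496. GRMZM2G103108 was off in more lines than not (175), yet reached the highest level of the members named here, 550 FPKM or 6726 counts in CIMBL29. Its 77 high lines had a median of 112.5 FPKM, and another 61 lines held 1 to 9 counts of it. Most lines were thus off for this gene, and most of those that were on either held a few reads or were high.

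GRMZM5G877929 was likewise off in 175 lines, but few lines lay between its states (31), and its high lines (35.2% of all lines) had a median of 74.8 FPKM, quartiles of 59.1 and 87.98 FPKM and a top value of 181.1 FPKM. GRMZM5G852505 was off in 197 lines and had quartiles of 51.9 and 82.4 FPKM over 94 high lines. GRMZM2G007628, detected in 195 lines, had quartiles of 34.5 and 60.2 FPKM over 150 high lines. In these 3 genes the upper quartile of the high lines was less than 2 times the lower one, although single lines lay well above it.

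A second kind of strong member had a broad high state. GRMZM2G154278 was off in 81 lines and high in 39% of all lines. Its high lines had a median of 71.7 FPKM and an upper quartile of 92.8 FPKM, and its lower quartile was 15.96 FPKM. GRMZM2G126936 was off in 71 lines, with quartiles of 13.6 and 56.9 FPKM over 177 high lines and a top value of 260 FPKM in ZHONG69. GRMZM2G109668 was off in 81 lines and had quartiles of 12.9 and 45.97 FPKM over 188 high lines. The last of the 10 strongest members had a narrower high state and belong with the genes before these. AC205982.3_FG014, detected in 213 lines, had a median of 34.3 FPKM and quartiles of 24.1 and 44.2 FPKM over 172 high lines. GRMZM5G802395, off in 91 lines, had a median of 37.4 FPKM and quartiles of 30.96 and 44.9 FPKM over 149 high lines. For GRMZM5G802395, 77 of the 78 lines between the states held fewer than 10 counts.

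Members differed widely in how often a line fell between the states. The fewest such lines, 12, belonged to GRMZM5G872399, which was off in 204 lines and high in 32.1% of them all. GRMZM5G870970 had 14 such lines and GRMZM2G095363 had 16. The most belonged to GRMZM2G126408, which was off in 68 lines and high in 69 of the 318, followed by GRMZM2G053882 and GRMZM2G180435 with 180 each. In the last of these, 155 of the 180 lines held 1 to 9 counts. GRMZM2G053882 was different, since 51 lines held 1 to 9 counts and its 68 high lines had quartiles of 8.25 and 71.5 FPKM. Its high lines thus spanned a wide range of levels.

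GRMZM2G095363 was also the member detected in the fewest lines, 86, ahead of GRMZM2G032244 with 88 and GRMZM2G478501 with 93. At the other end, GRMZM2G472473 was detected in all but 64 lines and GRMZM2G180249 and GRMZM2G704151 in 253 each. GRMZM2G032244 and GRMZM2G704151 are both transcribed pseudogenes in the reference table.

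The members shared features that the rule did not use. A RefSeq gene table of a later B73 assembly named 71 of the 300 members (23.7%), against 22.3% of the 6957 genes that were off in at least 64 lines and detected in at least 64, and 50.2% of the 37288 genes with a count in at least 1 line. Those 6957 genes, called here the genes with variable detection, hold the 300 members and are their nearest background. Of the named members 28.2%, or 20 genes, were pseudogenes, against 9.86% of the named genes with variable detection and 2.24% of all detected genes. Protein-coding genes made up 67.6% of the named members, against 86.6% and 97% in the same order. So most members had no name in the later annotation, as was the case for variable detection in general, and among those that had one, pseudogenes were several times as frequent. These shares are descriptions and were not tested. Members were also shorter, with a median of 883 bp against 1107 bp for variable detection and 1532 bp for all detected genes, and since the rule sets a level per kilobase it can itself favour short genes at equal counts.

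With a single exception, the names that the table gives are locus numbers with no described role. The exception is zma-MIR166h, a precursor of miR166, the microRNA family that targets the mRNAs of class III homeodomain-leucine zipper factors and so helps to set leaf polarity and meristem function. The annotated feature is 76 bp long, and its highest count was 80, in GEMS40 (80.8 FPKM). It was off in 69 lines and high in 56.9% of them all, and a count of 1 to 9 was more frequent than one of 0. Its off state thus rests on very few reads, and the RNA-seq libraries measured the precursor transcript and not the mature microRNA.

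The first question on the name series was whether the members were detected as often in each series as outside the series. The rule used no names. It did use the same counts of 0, so the members vary in detection by choice, and their calls are read against the genes with variable detection. A member can also have met the rule only with the lines of the series in which it was high. For each gene, the lines with and without a read were compared by a Fisher exact test (2-sided), with Benjamini-Hochberg adjustment over all 37288 genes with a count in at least 1 line. The members' median detection was 61.2% of CIMBL lines, 60% of CML lines and 69.6% of GEMS lines, against 65.7% of the lines outside the series.

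In CIMBL lines, 22 members were detected more often and 55 less often than outside the series at an adjusted p below 0.05, and the other 223 did not pass. Over all genes tested, 1.31% were called more often and 2.06% less often in CIMBL lines. Over the genes with variable detection, the shares were 4.47% and 7.92%, against 7.33% and 18.3% of the members. Members are detected in more lines than the variable genes in general and reach higher levels, and how much of the larger share comes from that was not tested. Without the 36 lines that are not listed, 21 members were detected more often and 45 less often. Of the 37207 genes tested there, the numbers were 422 and 637.

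In CML lines, 11 members were detected more often and 29 less often, or 3.67% and 9.67% of the members. The background was 0.4% and 0.743% of all genes and 1.52% and 3.23% of the genes with variable detection. Without the lines that are not listed, 7 were detected more often and 23 less often. Over all genes tested, the calls in CML lines also fell in both directions there. In GEMS lines, 2 members were detected more often and 3 less often, against 0.375% and 0.174% of all genes and 1.11% and 0.704% of the genes with variable detection. The members' shares in GEMS lines, 0.667% and 1%, were therefore near those of the variable genes. On the listed lines, 6 members were called in each direction, against 197 genes more often and 96 less often of 37207 tested. The calls over all genes on all lines were 140 and 65, so they rose as well. The CML and GEMS groups are smaller than the CIMBL group, so a smaller count there than in CIMBL lines does not by itself show a smaller difference. Between CML (40 lines) and GEMS (46 lines) the sizes are close. The difference between the series was not tested.

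Altogether 89 members were called in at least 1 comparison and 211 in none. Of the 89, 33 were called in both the CIMBL and the CML comparison, 24 less often and 9 more often in both, and 0 went in opposite directions. Both comparisons use the same lines outside the series, so their calls are not independent of each other. Another 44 members were called in the CIMBL comparison and not in the CML one, and 7 the other way round. None of the 5 members called in GEMS lines was called in CIMBL or CML lines. The same overlaps over all genes or over the variable genes were not computed. They are therefore not read as traits of the members. On the listed lines, 84 members were called in at least 1 comparison, and 23 were called in both the CIMBL and the CML one, 17 less often and 6 more often in both. There, 1 member called in GEMS lines was also called in another series.

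**Figure D2:**
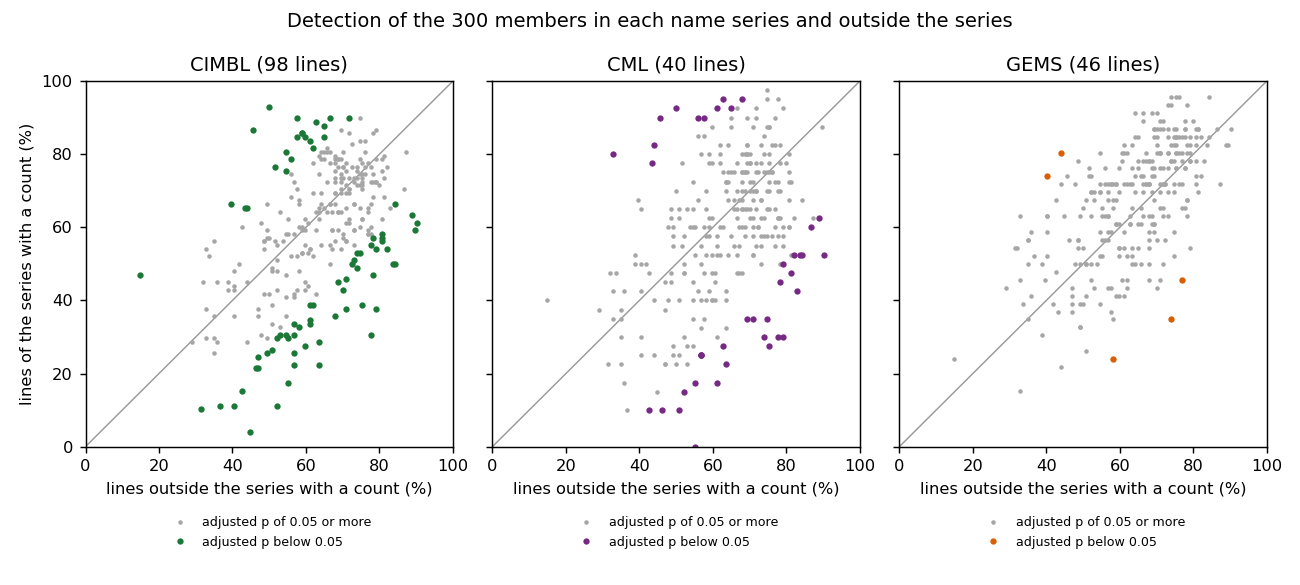
Share of lines with a count above 0 for each of the 300 members in CIMBL, CML or GEMS lines (y axis, %) and in the lines outside the series (x axis, %). Coloured points passed an adjusted p of 0.05 by the Fisher exact test, and more of them lie below the diagonal than above it for CIMBL (55 and 22) and CML (29 and 11).

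Some of the members called less often in CIMBL lines were off in nearly all of them. GRMZM5G827611 was detected in 4 of 98 CIMBL lines (4.08%), against 60 lines outside the series (44.8%, Fisher exact test with Benjamini-Hochberg adjusted p = 7.76e-10). It was also found in 6 of 40 CML lines and 29 of 46 GEMS lines. It reached 5 FPKM in 2 of the CIMBL lines, 3 of the CML lines, 22 of the GEMS lines and 49 of the lines outside the series. GRMZM2G702923 was detected in 11 of 98 CIMBL lines (11.2%), against 70 lines outside the series (52.2%, adjusted p = 2.98e-08).

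GRMZM2G398809 was detected in 30 of 98 CIMBL lines (30.6%), against 77.6% of the lines outside the series (Fisher exact test, adjusted p = 1.75e-09). Its levels separate the groups further than its detection does. It reached 5 FPKM in 1 CIMBL line (19.4 FPKM), against 63 of the lines outside the series. In 29 other CIMBL lines it was detected below 5 FPKM, up to 2.90 FPKM in CIMBL68. In CML lines it was detected in 12 of 40 (30%, adjusted p = 0.000106 against the same lines outside the series) and was high in 3. In GEMS lines it was detected in 35 of 46 and high in 29, with a median of 9.23 FPKM, against 1.09 FPKM outside the series.

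Some members were common in both CIMBL and CML lines. GRMZM2G063355 was detected in 91 of 98 CIMBL lines (92.9%) and 37 of 40 CML lines (92.5%), against 67 lines outside the series (50%). The adjusted p of the Fisher exact test was 1.14e-09 for CIMBL and 0.000324 for CML. Its median level was 4.64 FPKM in CIMBL lines (0 to 18.8) and 4.22 FPKM in CML lines (0 to 14.8), against 0.0234 FPKM outside the series (0 to 8.79). The ranges overlap, since each group holds lines at 0, but more than 9 in 10 lines of both series were on. In GEMS lines, 25 of 46 were on (54.3%), with a median of 0.158 FPKM.

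GRMZM2G103227 was detected in 85 of 98 CIMBL lines (86.7%) and 36 of 40 CML lines (90%), against 61 lines outside the series (45.5%), with adjusted p of 4.94e-08 and 0.000324 by the Fisher exact test. Its median was 7.76 FPKM in CIMBL lines and 6.37 FPKM in CML lines, against 0 outside the series. GRMZM2G552793 was detected in 88 of 98 CIMBL lines (89.8%), against 77 lines outside the series (57.5%, adjusted p = 1.04e-05). In GEMS lines GRMZM2G552793 was on in 20 of 46, a share below that outside the series.

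GRMZM5G842855 was a case of complete non-detection in a series. No read of it was counted in any of the 40 CML lines, which allows a share of up to 7.5% of lines, while it was detected in 74 of the lines outside the series (55.2%, Fisher exact test, adjusted p = 1.95e-07) and was high in 66 of those. In CIMBL lines it was detected in 17 of 98 and high in 11. In GEMS lines it was detected in 30 of 46 and high in 27, up to 66.4 FPKM in GEMS2. The total count of the CML libraries was 11589448 to 19831173 and that of the libraries outside the series 7216430 to 29629212.

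GRMZM5G894200, a transcribed pseudogene in the reference table, was detected in 12 of 40 CML lines (30%), against 79.1% of the lines outside the series (adjusted p = 7.30e-05 by the Fisher exact test). In the other direction, GRMZM2G374817 was detected in 32 of 40 CML lines (80%), against 44 lines outside the series (32.8%, adjusted p = 0.000189). It was high in 24 of the CML lines, with a median of 10.6 FPKM, and in 13 of the lines outside the series. In CIMBL lines, GRMZM2G374817 was on in 53 of 98 and high in 38.

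The 5 calls in GEMS lines had larger p-values than those above. GRMZM2G178100 was detected in 37 of 46 GEMS lines (80.4%), against 59 lines outside the series (44%, adjusted p = 0.00708 by the Fisher exact test). GRMZM5G867918 was detected in 34 of 46 (73.9%), against 54 (40.3%, adjusted p = 0.0291). The less frequent ones were GRMZM2G329119 in 16 of 46 (34.8%) against 99 (73.9%, adjusted p = 0.00333), GRMZM2G103479 in 11 of 46 (23.9%) against 78 (58.2%, adjusted p = 0.0192) and GRMZM2G067833 in 21 of 46 (45.7%) against 76.9% outside the series (adjusted p = 0.0348). Of the 5, GRMZM2G178100 was the single one called under each other definition of detection that was tried.

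For zma-MIR166h, the precursor of miR166, detection was 65 of 98 CIMBL lines (66.3%) against 84.3% of the lines outside the series, with an adjusted p of 0.0489 by the Fisher exact test. The call was lost under 5 of 6 alternatives, among them the listed lines alone (adjusted p = 0.116) and counts thinned to the lowest library total (adjusted p = 0.595), with adjusted p of 0.116 to 1 over the 5. At 10 counts or more, the difference was -2.0 percentage points. The call is given here with these values because so few reads lie behind it.

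**Figure D3:**
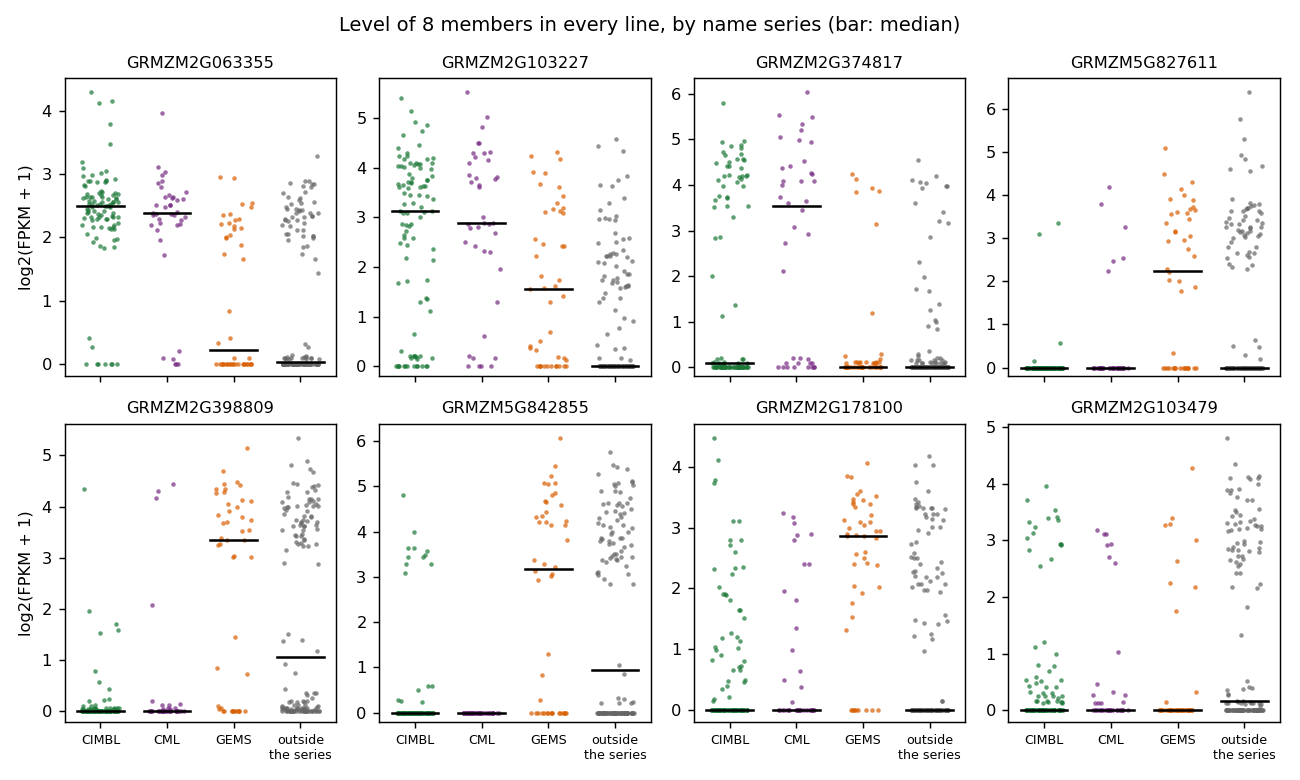
Level of 8 members in every line (y axis, log2(FPKM + 1)), in CIMBL, CML and GEMS lines and in the lines outside the series. Each point is a line and each bar the median of its group. GRMZM5G842855 is at 0 in all 40 CML lines, and in most panels the points form a band at or near 0 and a band above it.

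The second question was whether the counts of the members differed by series, in whichever form. edgeR's quasi-likelihood test was run on all 318 libraries, and all 300 members passed its filter on low counts, among 26440 genes tested. In CIMBL lines, 20 members were higher and 76 lower than outside the series at an adjusted p below 0.05, or 6.67% and 25.3%. Over all genes tested the shares were 10.8% and 13.5%, and over the 2547 genes with variable detection that passed the filter they were 11.6% and 24.9%. The members' share of lower genes in CIMBL lines was thus near that of variable genes in general. In CML lines, 19 members were higher and 41 lower, or 6.33% and 13.7%, against 5.62% and 7.3% of all genes and 7.15% and 14.6% of the variable genes. In GEMS lines, 3 were higher and 2 lower, or 1% and 0.667%, against 2.06% and 2.18% of all genes and 3.85% and 5.06% of the variable genes. The GEMS counts depended on the test. By limma on log2(FPKM + 1), 26 members were higher and 12 lower, or 8.67% and 4%. The shares were 3.43% and 2.22% of all genes, and 9.07% and 4.00% of the variable genes, near those of the members. On the listed lines the higher and lower members numbered 17 and 68 in CIMBL, 15 and 40 in CML, and 5 and 4 in GEMS lines. Those were 5.67% and 22.7%, 5% and 13.3%, and 1.67% and 1.33%. The variable genes gave 10.7% and 22.8%, 6.56% and 14.7%, and 4.64% and 7.56%. All genes gave 10.6% and 12.8%, 6.17% and 7.81%, and 2.70% and 3.66%.

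The median log2 fold change of the members was -0.27 in CIMBL lines, -0.28 in CML lines and 0.10 in GEMS lines, each against the lines outside the series. The median over all genes tested was -0.01, -0.02 and -0.01 in the same order. Over the genes with variable detection it was -0.25, -0.26 and -0.03, near the members' values in CIMBL and CML lines. Of the 77 members called for detection in CIMBL lines, 60 were also called for level, and all 60 in the same direction. In CML lines, 25 of 40 were called by both tests, again 25 in the same direction. In GEMS lines, 0 of the 5 called for detection were called for level. Both tests read the same counts, and a gene at 0 in many lines goes against the single mean per group that the level test assumes. The overlap of the 2 tests over all genes or over the variable genes was not computed. It is therefore not read as a trait of the members. On the listed lines, 48 of 66 members called for detection in CIMBL lines, 19 of 30 in CML lines and 2 of 12 in GEMS lines were called by both tests, each in the same direction.

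The level test gave differences of a wide range on both sides for the members named above. In CIMBL lines against the lines outside the series, the log2 fold change was -4.64 ± 0.49 for GRMZM5G827611 and -4.38 ± 0.49 for GRMZM2G398809 (SE, edgeR adjusted p = 1.10e-15 and 3.14e-14), and -2.13 ± 0.52 for GRMZM2G095363 (adjusted p = 0.00076). On the higher side it was 3.1 ± 0.46 for GRMZM2G478501 (edgeR adjusted p = 1.28e-08), 2.09 ± 0.33 for GRMZM2G103227 and 1.6 ± 0.32 for GRMZM2G063355 (adjusted p = 1.27e-07 and 2.87e-05 by edgeR). In CML lines, GRMZM2G374817 was higher by 3.25 ± 0.53 on the log2 scale (edgeR adjusted p = 1.19e-06).

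Co-occurrence was measured as phi, the correlation of detection between a pair of members over the 318 lines. It is 1 when the same lines detect both and -1 when each line detects exactly 1 of them. The points share their libraries, so phi is a description and has no test. Over the 44850 pairs, phi was -0.324 to 0.861 with a median of 0.0137, so a typical pair was close to unrelated. A phi of at least 0.5 was found for 17 pairs (0.0379%) and of at least 0.8 for 2 pairs. Among pairs of the other genes with variable detection, 0.00205% reached 0.5, and the range was -0.901 to 0.953. All 300 members passed the filter on low counts of the level test. Of the 6957 genes with variable detection, which hold the members, 2547 passed it. How much of the members' larger share comes from their higher counts was not tested. The 17 pairs joined 31 members into 15 blocks, of which 14 were pairs, a cut of 0.5 that was chosen after the values were seen. On the listed lines alone, 17 pairs reached 0.5 and 2 reached 0.8.

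The closest pair was GRMZM2G042782 and GRMZM2G329119 (phi 0.861). Both were detected in 209 lines and neither in 90, while 11 lines had only GRMZM2G042782 and 8 only GRMZM2G329119. The pair held in each series, with a phi of 0.876 in CIMBL lines, 0.928 in CML lines and 0.741 in GEMS lines, against 0.874 outside the series. In GEMS lines, 25 of 46 were off for both. Over the 209 lines with both genes on, their levels were negatively correlated (Pearson's r of log2(FPKM + 1) = -0.36). They were thus mostly on together, and 1 tended to be lower where the other was higher.

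GRMZM2G042438 and GRMZM5G870970 (phi 0.808) came second. Both were on in 110 lines and off in 177, with 28 lines that had only GRMZM2G042438 and 3 that had only GRMZM5G870970, and their levels were correlated over the 110 lines (r = 0.80). GRMZM2G042438 is a transcribed pseudogene in the reference table. GRMZM2G127478 and AC212467.3_FG001 (phi 0.764) were both on in 154 lines and both off in 125. GRMZM2G312198 and AC186189.3_FG004 (phi 0.726) were both off in 148 lines, and GRMZM5G874896 and GRMZM2G090657 (phi 0.706) were both on in 203 and both off in 75. In all 4 pairs the lines that broke the pattern were mostly on 1 side, with the gene of higher mean level on alone in 3 of them and GRMZM2G090657, the weaker gene, on alone in 28 lines of the last.

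A stricter definition of on changed these values. When on was set at 1 FPKM in place of a single read, 9 pairs reached 0.8 in place of 2. The phi of GRMZM2G312198 and AC186189.3_FG004 was then 0.947, with 8 lines in which exactly 1 of them was on in place of 47. That of GRMZM5G874896 and GRMZM2G090657 was 0.936, and that of GRMZM2G042438 and GRMZM5G870970 was 0.933. The highest value at 1 FPKM, 0.975, belonged to GRMZM5G854284 and GRMZM2G511318, which were both on in 159 lines and both off in 155. That pair had a phi of 0.679 by single reads. GRMZM2G042782 and GRMZM2G329119 went the other way, to 0.758 at 1 FPKM.

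A few members were neighbours in the reference table or shared a gene there. GRMZM2G343974 and GRMZM2G044503 carry the same RefSeq gene, LOC100193153, in the later assembly. They were both on in 195 lines and both off in 66, with a phi of 0.612. Of 4 other pairs of members within 10 positions of each other in that gene list, GRMZM5G872618 and GRMZM2G338696 (phi 0.462) and GRMZM5G847707 and GRMZM2G042438 (phi 0.349) were on together more often than a typical pair. GRMZM5G893216 and GRMZM5G854604, the closest of the 4, had a phi of 0.0897, and GRMZM2G051545 and GRMZM2G020468 had 0.0721. The positions of most members in that table are unknown, since 71 were matched, so whether the tightest pairs lie side by side was not tested.

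With on as a single read, mutual exclusion was weak. The lowest phi, -0.324, was between GRMZM2G488346 and GRMZM5G858754, which were still both on in 93 lines. GRMZM2G095363 and GRMZM2G086117 had -0.300, GRMZM2G481184 had -0.298 with GRMZM5G856366 and -0.297 with GRMZM5G842855, and GRMZM2G180249 and GRMZM2G002483 had -0.285. GRMZM2G488346 was on in 22 of 98 CIMBL lines and 9 of 40 CML lines, against 85 lines outside the series, while GRMZM5G858754 was on in 87 and 38, against 84. Within the series the phi of this pair was -0.196 in CIMBL, -0.151 in CML and -0.125 in GEMS lines, against -0.297 outside the series. For 3 of the other 4 pairs, phi was further from 0 in GEMS lines than over all lines, with -0.364 for GRMZM2G095363 and GRMZM2G086117, -0.387 for GRMZM2G481184 and GRMZM5G856366, and -0.430 for GRMZM2G481184 and GRMZM5G842855. For GRMZM2G180249 and GRMZM2G002483 it was -0.0789 in GEMS lines. Among all pairs of members, 2.56% had a phi of -0.3 or below within GEMS lines, against 0.00223% over all lines. The GEMS lines are fewer, so the lower values there are not read as stronger exclusion. With on set at 1 FPKM, 26 pairs had a phi of -0.3 or below, in place of 1. The lowest was then -0.405, between GRMZM5G842855 and GRMZM2G416791, which were both on in 31 lines.

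**Figure D4:**
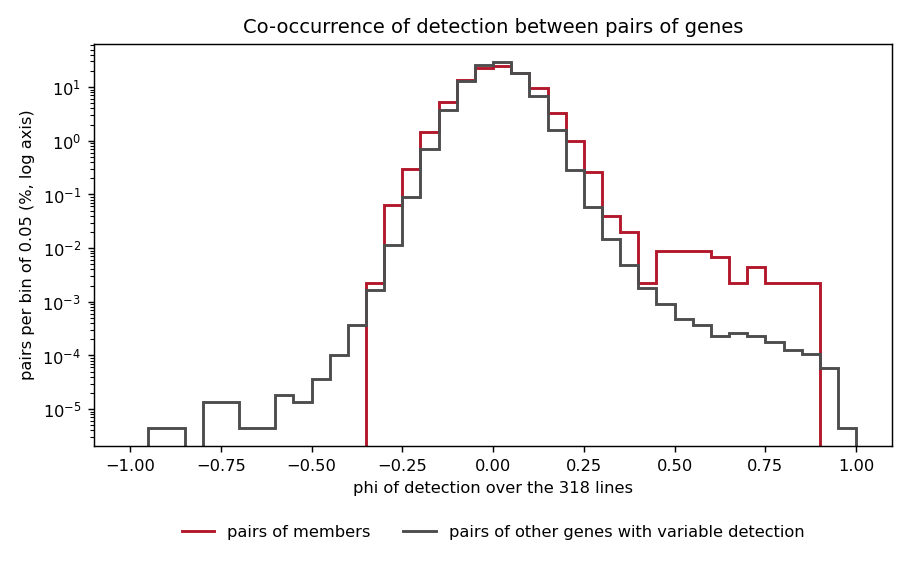
Distribution of phi over pairs of members and over pairs of the other genes with variable detection (x axis, bins of 0.05, y axis, percent of pairs on a log axis). Both curves peak near 0, and the members have 17 of 44850 pairs at 0.5 or more.

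Each line had its own set of members. A line detected 145 to 257 of the 300 (median 183) and had 71 to 159 at 5 FPKM or more (median 97.5). The median was 173 in CIMBL lines, 176 in CML lines and 198.5 in GEMS lines, against 187 in the lines outside the series. Over the listed lines the medians were 173, 175 and 198, against 186. The number was weakly related to depth: its correlation with the total count over the 318 lines was r = 0.12 (rho = 0.16), and r = 0.10 without the 2 lines farthest from the median. With the number of other genes detected in the line, the correlation was r = 0.45 (rho = 0.44), and within the series it was 0.37 in CIMBL, 0.61 in CML and 0.37 in GEMS lines, against 0.39 outside the series. Without the 2 lines farthest from the median, the value in GEMS lines was 0.22. With the number of members at 1 to 9 counts, which are part of the members detected, the correlation over the 318 lines was r = 0.39 (rho = 0.22). It was r = 0.68 in CIMBL, 0.57 in CML and 0.21 in GEMS lines, against 0.50 outside the series.

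The lines with the most members were CML298 with 257, ZI330 with 248 and Z2018F with 245, and the line with the fewest was CIMBL22 with 145. Of the 12 lines with the most members, a number that includes a tie of 3 lines at 233, 7 are not listed in the mapping statistics, although 36 of 318 lines are not listed. The median was 195.5 members in lines that are not listed, against 183 in listed lines, and the total counts were similar (median 13600031 and 13670004). At 5 FPKM or more, the median number of members was the same in both, 97.5. CML298, with the most members detected, had 88 at that level.

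**Figure D5:**
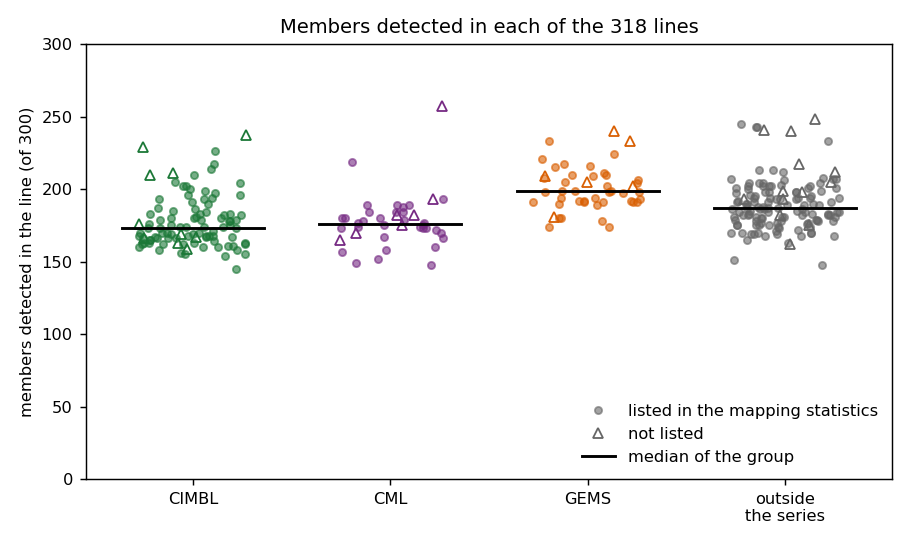
Members detected in each line (y axis, of 300) for CIMBL, CML and GEMS lines and the lines outside the series, with open triangles for the lines that are not listed in the mapping statistics and bars at the group medians (173, 176, 198.5 and 187). Several triangles lie above the rest of their group.

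Any pair of lines agreed in the state, on or off, of a median of 168 of the 300 members, and of 276 at most. Lines of 1 series agreed slightly more, with a median of 173 within CIMBL, 176 within CML and 179 within GEMS, against 169 within the lines outside the series and 166 between groups. Above this bulk stood 31 pairs of lines that agreed in at least 250 members, a limit chosen after the values were seen. Some have like names, such as BY813 and BY815 with 267 or HZ4 and TY-HZ4 with 256, and others do not, such as GL178 and TY-HZ4 with 257. Of the 31 pairs, 11 join lines of different groups, and each of the 11 holds a line that is not listed. Examples are GEMS9 with B111 (276), CIMBL90 with CML171 (276) and CIMBL133 with CML415 (270). Among listed lines, 0 pairs across groups agreed that closely. In all, 36.1% of the lines that are not listed were in a close pair, against 12.1% of listed lines. Whether each of these libraries comes from the line it is named for was not tested, and the counts of members called above are therefore also given on the listed lines.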

How the data were processed

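Raw counts and FPKM of 39625 genes in 318 libraries were used, 1 library per inbred line, and no column was left out. The deposited counts are raw reads per gene, given by the authors as whole numbers. Reads were trimmed, aligned to B73 RefGen_v3 with TopHat2 and kept when uniquely aligned, with no version given in the sources used here. Genes with near-identical copies can therefore be undercounted, and since strand was not used, reads of overlapping genes cannot be told apart. For the deposited FPKM, the authors scaled the same counts by DESeq2 size factors. Gene length was recovered from the ratio of counts to FPKM.

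The members and lists were chosen with earlier results of these data known. Groups were taken from the line names in the labels. Detection (a count above 0) was compared by Fisher exact tests. Levels were compared with edgeR 4.0.16 (TMM, filterByExpr, glmQLFTest, R 4.3.3) in 1 fit of 4 groups, and the SE is the log2 fold change over the root of its F value. Benjamini-Hochberg adjustment ran over all genes tested within each of 3 comparisons, at 0.05. Both scripts were tested on simulated data. P-values measure the spread between lines that may be related. Python 3.11.15, scipy 1.17.1 and pandas 2.3.3 were used otherwise. Alternatives used limma 3.58.1, DESeq2 1.42.0 and counts thinned to the lowest total (6100624).

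Members named are the 10 with the highest mean FPKM, the 3 with the smallest Fisher p in each direction of each comparison, those of the 5 highest and 5 lowest pairs by phi, the 3 at each end of lines detected and of lines between the states, those with a gene symbol, and those at the edges of the rule. Others were chosen after their values were seen. The RefSeq table (assembly Zm-B73-REFERENCE-NAM-5.0, a later build than that of the counts) matched 19059 identifiers and gave names, gene types and neighbours. It holds no descriptions, so the functional classes that had been listed by keyword were not used here, and no sequences are printed. A total count limits how low a level can be told from 0, and intervals and limits cover counting error only.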

Additional observations from a re-analysis of the deposited data

How the results depend on the processing

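All counts of members depend on where on and off are set. The rule passed 0.757% of all genes, and would have passed 2.95% at 1 FPKM, 0.290% at 10 FPKM, 2.25% with at least 32 lines on either side and 0.215% with at least 96, while the listed lines gave 303 genes, of which 293 were among the 300. For detection, the 11 members called more often in CML lines became 18 at 10 counts, 19 at 1 FPKM, 18 with thinned counts, 7 on the listed lines and 21 when the adjustment covered the genes with variable detection alone. In GEMS lines, the 2 called more often became 10, 7, 4, 6 and 14 in the same order, and the 3 called less often became 1 at 5 FPKM, 6 on the listed lines and 5 under the narrower adjustment. In these settings, the calls over all genes tested moved in the same direction as those of the members. The exception was the calls more often in GEMS lines with thinned counts, which fell over all genes. The CIMBL counts of members, and the 29 members less often detected in CML lines, stayed within 1.5 times under the alternatives run. For levels, limma on log2(FPKM + 1) and log2(FPKM + 0.1) called 43 and 41 members higher in CIMBL lines, 34 and 34 higher and 76 and 78 lower in CML lines, and 26 and 27 higher and 12 and 13 lower in GEMS lines. By limma on log2(FPKM + 1), 14.3% of members were higher in CIMBL lines, against 11.7% of all genes and 12.96% of the variable genes. In CML lines, 11.3% of members were higher and 25.3% lower. All genes gave 5.56% and 7.79% there, and the variable genes 7.7% and 14.96%. DESeq2 called 10 members higher in CML lines and 1 higher in GEMS lines, or 3.34% and 0.334%, against 4.92% and 2.10% of all genes. The listed lines gave 5 higher and 4 lower in GEMS lines by edgeR. Pairs with a phi of at least 0.5 made up 0.200% of pairs within CML lines and 0.256% within GEMS lines, against 0.0379% over all lines. Phi was more spread on the low side as well. Pairs at -0.3 or below made up 2.77% within CML lines and 2.56% within GEMS lines, against 0.00223% over all lines. These groups hold fewer lines, and how much of the spread comes from that was not tested. Pairs with at least 0.8 numbered 10 at 10 counts, 9 at 1 FPKM, and 4 each with thinned counts, within CML and within GEMS lines. The median share of members on in a line was 61%, and 46.3% at 10 counts and 46% at 1 FPKM. The cause of these shifts was not tested.

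Of 18 calls on named members under 6 alternatives, 93 values stayed past the threshold, 15 did not and 0 changed direction. The 15 concern 4 members in GEMS lines and zma-MIR166h. The listed lines as an alternative for co-occurrence were added after seeing the data. No paired analysis was possible because the lines carry no replicate numbers in the labels. In a library of typical size, 3 counts of a member correspond to 0.0380 to 2.83 FPKM, so off means below that member's own limit in this range.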
